A study of Mus musculus with 21 samples.

Results

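Odorant and vomeronasal receptors are the proteins with which mice smell, and their genes were followed here through mouse embryonic stem cells (ESCs) with or without sodium lactate, cells resembling the 2-cell embryo (2CLCs), stem cells of the epiblast (EpiSCs) and embryonic fibroblasts (MEFs). Members were the gene names that begin with Olfr or Vmn in the deposited expression table of the 4 cell states, a table whose entries each reach at least 0.5 FPKM (fragments per kilobase of transcript, scaled to the size of the library) in a library. They were 82 of 21161 names: 56 Olfr, 11 Vmn1r and 15 Vmn2r genes, of which 28 carry the suffix -ps that marks a pseudogene. The same 82 names were then followed in a table of 3 lactate doses, which has no such floor and lists 1997 Olfr and Vmn names among 55291, so the members are 4.11% of the receptor names known there. Each of the 7 groups had 3 libraries: the cell states 2CLCs, ESCs, EpiSCs and MEFs, and ESCs at 0, 60 or 80 mM lactate. The labels give OG2 as the cell line of all 21 libraries and WT as the treatment of the 4 cell states and of the 0 mM group. They do not say how 2CLCs were obtained or purified, how long lactate was given, or whether a group's 3 libraries stem from different cultures, so a p-value speaks only of the spread among these libraries.

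Odorant receptors (Olfr) are G protein-coupled receptors, and a mature olfactory sensory neuron expresses a single allele of a single receptor gene while the other receptor genes lie in compacted chromatin. Vomeronasal receptors of type 1 (Vmn1r) and type 2 (Vmn2r) do the same work in the vomeronasal organ, in neurons that signal through the G proteins Gnai2 and Gnao1, and respond to pheromones and other social cues. These families expanded by local duplication, so their genes stand in clusters, many copies are nearly alike, and many have lost their reading frame.

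The libraries were first checked against their labels. The summed level of 11 genes of the 2-cell programme, Zscan4 and Tcstv genes among them, was 22683 to 25934 FPKM in 2CLC libraries, 8.59 to 8.90 in ESC libraries and at most 0.256 in EpiSC and MEF libraries. Fibroblast genes summed to 1051 to 1080 FPKM in MEFs and to at most 14.8 in the other states, and markers of primed pluripotency to 656 to 849 in EpiSCs and at most 41.9 in the other states. The 10 ESC markers separated the states less, at 2543 to 2561 FPKM in ESCs and 1542 to 1609 in 2CLCs. In EpiSCs they summed to 663 to 796 and in MEFs to 18.4 to 19.7. In the lactate table, the primed markers summed to 58.0 to 63.4 FPKM at 0 mM, 85.0 to 93.2 at 60 mM and 93.9 to 100.2 at 80 mM. Markers of olfactory neurons gave no such pattern: Omp, the defining protein of the mature olfactory neuron, is among 9 of 16 markers that never reached the floor of the cell-state table. The other 7 (Gap43, Gng8, Stmn2, Tubb3, Ncam1, Neurod1 and Sox2), which other neurons or stem cells also express, summed to 96.6 to 118 FPKM in 2CLCs and to 277 to 287 in ESCs. The share of these cells in each library was not measured, and in RNA from many cells, more expressing cells and more RNA per cell cannot be told apart. Because 2CLC libraries also held more FPKM in all (518399 to 519915, against 375926 to 430314 in the other states), members were set beside all names throughout.

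Transcripts of these receptor genes were found mainly in 2CLCs. In the 2CLC libraries 59, 57 and 64 of the members reached 0.5 FPKM, against 3, 3 and 2 in ESCs, 2, 2 and 4 in EpiSCs and 5, 4 and 5 in MEFs. Any receptor name at this level is in the table by its rule, so these counts are not shaped by which names were kept. The number of all gene names at 0.5 FPKM was similar in the same libraries, 14746 to 14785 in 2CLCs, 13931 to 14045 in ESCs, 14294 to 14905 in EpiSCs and 14514 to 14547 in MEFs. The summed level of the members was 212, 226 and 189 FPKM in 2CLCs, 7.06, 7.22 and 5.55 in ESCs, 4.93, 4.01 and 5.05 in EpiSCs and 8.60, 6.33 and 8.08 in MEFs. No 2CLC library came near any other, yet even there these genes made up only 0.0365 to 0.0434% of all FPKM. Unlike the counts, the sums are shaped by which names were kept, since receptor genes below the floor in all 4 states are left out. In ESCs at 0 mM lactate, where all receptor names are listed, the 1915 others summed to 7.66 to 9.36 FPKM, beside 11.99 to 12.98 for the members. All 3 families contributed: Olfr genes summed to 133 to 157 FPKM in 2CLCs, Vmn1r genes to 34.4 to 42.9 and Vmn2r genes to 22.0 to 28.2.

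**Figure D1:**
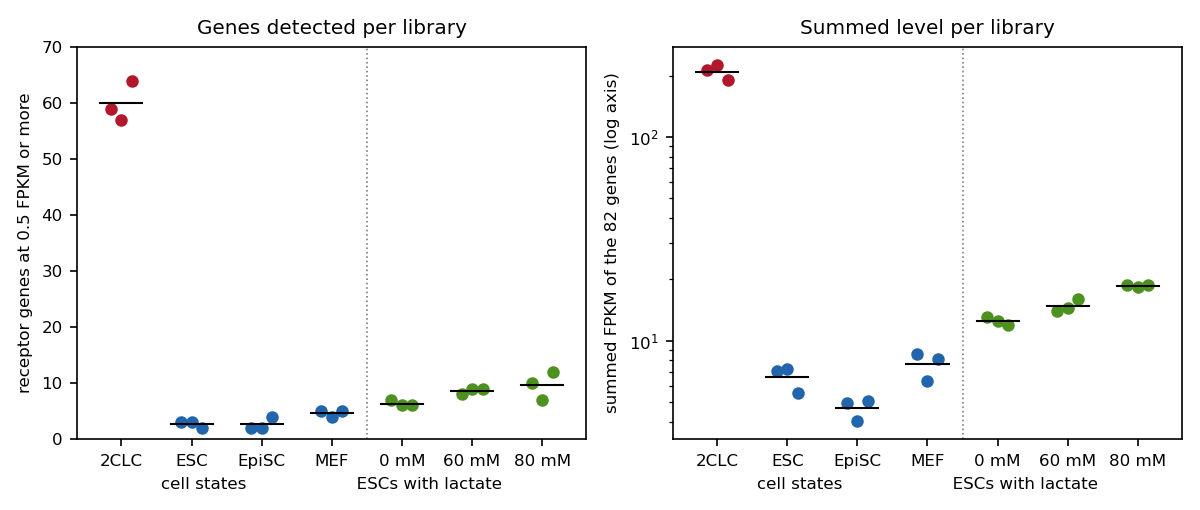
Number of members at 0.5 FPKM or more (left) and their summed FPKM on a log axis (right) in each of the 21 libraries; points are libraries, bars are group means, and the dotted line separates tables that were normalized separately. The 2CLC libraries hold 57 to 64 detected members and every other library at most 12.

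The mean was highest in 2CLCs for 70 members, in MEFs for 5, in EpiSCs for 4 and in ESCs for 3, while 21.6% of all names of the table were highest in 2CLCs. For 64 members every 2CLC library lay above all 9 libraries of the other states, a pattern held by 15.3% of all names. Listed at 0 in all 9 were 39 members, against 4.25% of all names. Against ESCs alone, 66 members had every 2CLC library above every ESC library (22.7% of all names) and 4 below (51.7%). A name enters the table by reaching the floor somewhere, so a receptor gene seen in 2CLCs alone had to look different there, and these counts describe the members without testing them. The 2CLC means of the 70 ran from 0.293 to 17.4 FPKM with a median of 1.03, and 12 of them were at 5 FPKM or more. Olfr, Vmn1r and Vmn2r genes had like medians of 0.962, 1.33 and 1.12 FPKM. Of the 12 highest, 5 carry the suffix -ps: Olfr766-ps1, Olfr764-ps1, Olfr882-ps1, Vmn2r-ps61 and Vmn1r-ps152.

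**Figure D2:**
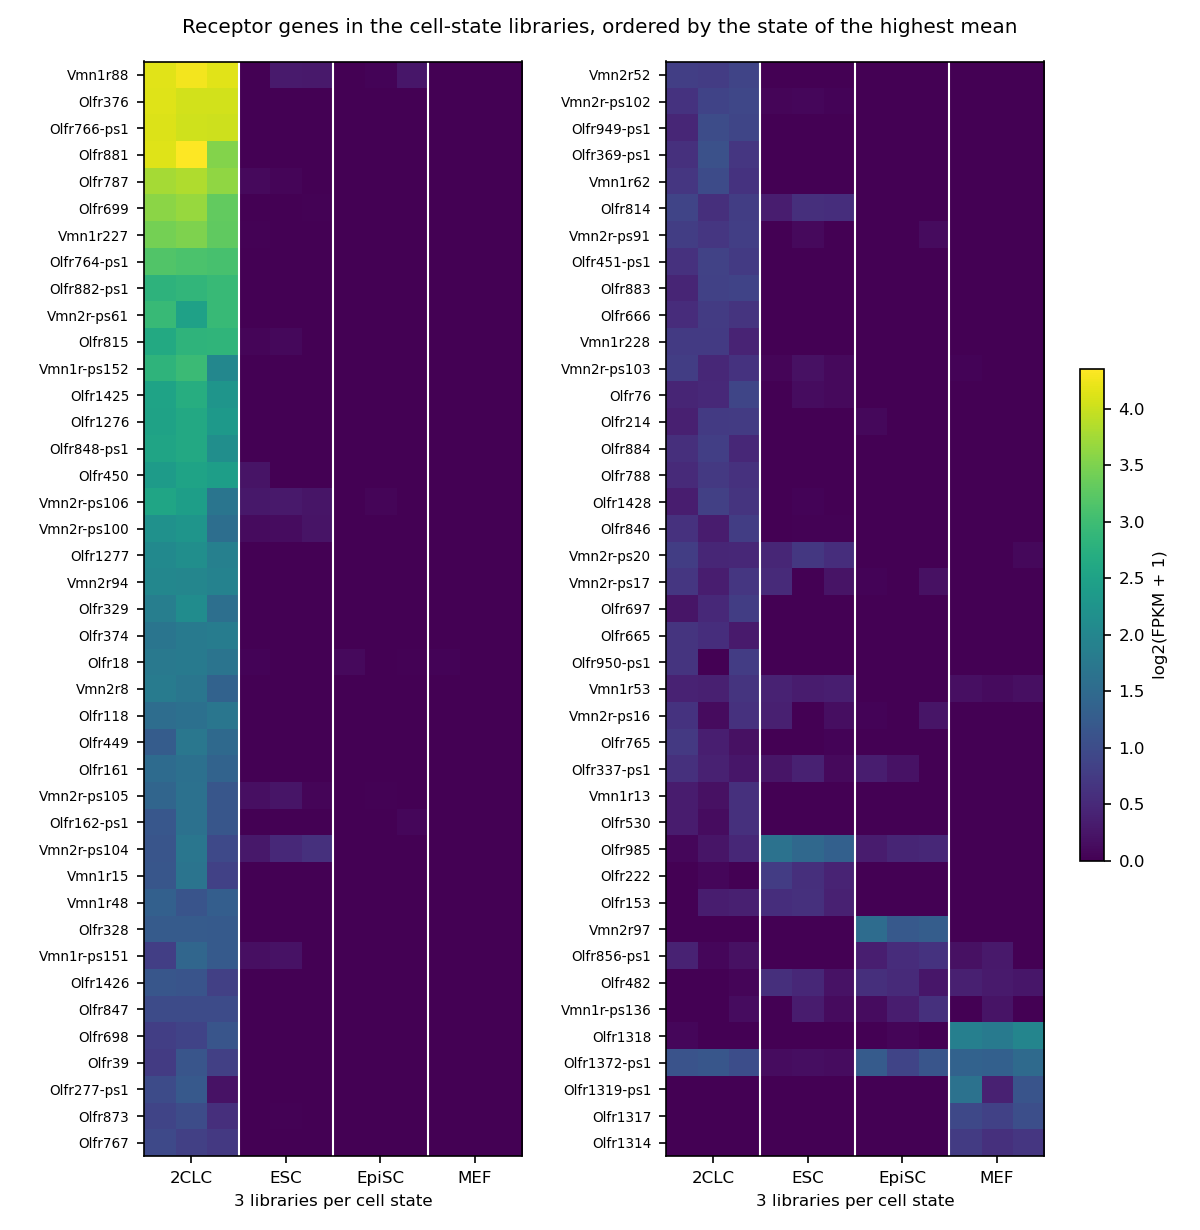
Level of each of the 82 members in the 12 cell-state libraries as log2(FPKM + 1), ordered by the state with the highest mean and then by that mean. The rows from Vmn1r88 to Olfr530 are highest in 2CLCs, and the last rows hold the members of ESCs, EpiSCs and MEFs.

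To show the genes themselves, the stretch around the coding start is printed for 6 members: 4 of high or clustered 2CLC level (Olfr787, Olfr881, Olfr815 and Olfr1276), Olfr698, which has the motif match described next, and Vmn2r97, the EpiSC gene. Each holds the 250 bases before and 50 after the RefSeq start (build GRCm38.p6, read 5′ to 3′ on the gene's strand), with capitals for the start codon as GENCODE M21 places it and, in Olfr698, also for the motif.
Olfr787 (chr10:129462428-129462727, plus strand): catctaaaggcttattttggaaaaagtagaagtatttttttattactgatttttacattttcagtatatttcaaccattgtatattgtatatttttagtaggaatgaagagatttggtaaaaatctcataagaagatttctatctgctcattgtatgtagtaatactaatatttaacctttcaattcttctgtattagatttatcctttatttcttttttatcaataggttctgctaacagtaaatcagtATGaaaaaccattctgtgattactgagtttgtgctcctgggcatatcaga
Olfr881 (chr9:37992242-37992541, plus strand): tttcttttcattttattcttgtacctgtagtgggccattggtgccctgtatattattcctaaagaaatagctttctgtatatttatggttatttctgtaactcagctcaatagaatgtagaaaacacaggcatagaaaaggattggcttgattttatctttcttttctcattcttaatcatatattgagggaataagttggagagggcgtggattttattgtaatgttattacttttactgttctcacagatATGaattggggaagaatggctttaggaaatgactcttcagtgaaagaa
Olfr815 (chr10:129902677-129902976, minus strand): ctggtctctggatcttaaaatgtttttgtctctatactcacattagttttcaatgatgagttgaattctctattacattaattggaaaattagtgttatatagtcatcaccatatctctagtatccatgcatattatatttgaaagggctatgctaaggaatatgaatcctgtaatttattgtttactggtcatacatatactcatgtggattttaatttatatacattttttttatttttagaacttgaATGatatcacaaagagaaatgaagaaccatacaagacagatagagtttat
Olfr1276 (chr2:111256867-111257166, plus strand): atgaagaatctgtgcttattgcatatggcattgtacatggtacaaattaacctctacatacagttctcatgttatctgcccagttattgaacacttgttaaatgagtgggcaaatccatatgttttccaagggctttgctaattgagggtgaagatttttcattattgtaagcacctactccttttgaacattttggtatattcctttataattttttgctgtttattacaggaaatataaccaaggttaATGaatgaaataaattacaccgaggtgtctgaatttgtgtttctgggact
Olfr698 (chr7:106753337-106753636, minus strand): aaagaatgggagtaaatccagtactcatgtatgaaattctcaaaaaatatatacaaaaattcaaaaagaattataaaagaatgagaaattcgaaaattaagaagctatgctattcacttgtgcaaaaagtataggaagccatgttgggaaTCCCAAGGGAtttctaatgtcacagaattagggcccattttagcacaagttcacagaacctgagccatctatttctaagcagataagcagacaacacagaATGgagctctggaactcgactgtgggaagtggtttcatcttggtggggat
Vmn2r97 (chr17:18914072-18914371, plus strand): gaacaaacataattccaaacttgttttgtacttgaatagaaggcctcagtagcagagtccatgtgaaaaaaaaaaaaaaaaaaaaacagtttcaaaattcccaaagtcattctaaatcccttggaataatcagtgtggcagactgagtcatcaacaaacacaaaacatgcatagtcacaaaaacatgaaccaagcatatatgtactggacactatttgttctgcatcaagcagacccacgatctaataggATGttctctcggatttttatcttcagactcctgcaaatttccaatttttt
The windows are rich in A and T. RefSeq gave a window for 44 of the 82 members, and their median GC content was 34.8%, against 52.7% over all 32851 windows. In 32 of the 44 the RefSeq start is the start codon itself, as in 76.2% of receptor windows and 5.83% of all windows. Of 43 members with a GENCODE start to set beside it, 37 have that start over 100 bases further upstream, so most of these windows show the coding start rather than the promoter.

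The windows were searched on both strands for 3 motifs, and no member window held more than 1 kind. TGATT, any 2 bases and ATCA, the site of Dux, the transcription factor that switches on the 2-cell programme, was in 0 of the 44 windows, in 0.865% of receptor windows and in 0.207% of all. TCCC, any 2 bases and GGGA, the site of the Ebf factors of olfactory neurons, was in 1 of 44, that of Olfr698, and in 0.904% of all. TAATTA, a homeodomain core, was in 6 of 44 (13.6%), those of Olfr153, Olfr1277, Olfr1314, Olfr530, Olfr39 and Olfr788, against 16.6% of receptor windows and 5.29% of all. A match is a description of letters in this window only.

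The limma fit of the cell-state table tested genes that reached 1 FPKM in at least 3 libraries, with Benjamini-Hochberg adjustment over 16358 genes. Of the members, 35 passed, 31 of them only through the 2CLC libraries, Olfr985 only through ESCs, Vmn2r97 only through EpiSCs and Olfr1318 only through MEFs. Between 2CLCs and ESCs 32 of the 35 were called higher and 1 lower, where 20.1% of all tested genes were called higher and 56.4% lower. A gene that passed through a single state had to be high there, so these counts carry no weight of their own, and the differences from ESCs below are descriptions given without a p-value. The median difference of all tested genes was -0.46 on the log2(FPKM + 1) scale, and it was 0.04 after median-of-ratios scaling, under which 38.4% of all genes were called higher and 31.7% lower, and 40 members higher and 1 lower.

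The type 1 vomeronasal receptor Vmn1r88 (chr7:13159568-13185864, plus strand in GRCm38) had the highest mean of all members, at 16.9, 18.4 and 16.8 FPKM in the 3 2CLC libraries. It was at 0.0106, 0.248 and 0.222 in ESCs, 0, 0.0297 and 0.200 in EpiSCs and listed at 0 in MEFs. No 2CLC library overlapped any other, and the difference from ESCs was 3.99 ± 0.10 (SE). Its annotated exons share 1272 bases, 14.0% of their length, with the pseudogene Gm4879 on the same strand, which was lower in 2CLCs than in ESCs (means of 0.537 and 2.08 FPKM). The predicted gene Gm38947, 6.25 kb from it, was at a mean of 7.46 FPKM in 2CLCs and 0.0126 in ESCs.

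The odorant receptor Olfr376 (chr11:73371246-73377836, plus strand) was at 16.6, 15.6 and 15.6 FPKM in 2CLCs and listed at 0 in all 9 other libraries. Its difference from ESCs was 4.08 ± 0.05 (SE). It is the only member in a cluster of 44 receptor genes, so its neighbours stayed below the floor while it was among the highest. Olfr699 (chr7:106787963-106793198, minus strand), another odorant receptor, was at 11.1, 11.8 and 8.84 in 2CLCs, 0, 0 and 0.0169 in ESCs and 0 elsewhere, a difference of 3.51 ± 0.08 (SE) from ESCs.

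Olfr881 (chr9:37991825-37996408, plus strand) was at 16.7, 19.4 and 10.7 FPKM in 2CLCs and listed at 0 in every other cell-state library, with a wide spread among its 3 libraries. Replicate 3 was its lowest 2CLC library, as in 34 of the 70 members highest in 2CLCs (48.6%) and in 48.0% of all names highest there. The neighbouring pseudogene Olfr882-ps1 was at 6.01, 6.30 and 6.62, where replicate 3 was the highest. Vmn1r-ps152, a type 1 vomeronasal pseudogene, was at 6.14, 6.85 and 3.05, and both were listed at 0 outside 2CLCs. Their differences from ESCs were 2.87 ± 0.05 (SE) and 2.61 ± 0.19 (SE).

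Of the vomeronasal genes, Vmn1r227 (chr17:20729843-20739150, plus strand) was at 9.86, 10.41 and 8.79 FPKM in 2CLCs and 0.0173, 0.00860 and 0.00802 in ESCs. The type 2 pseudogene Vmn2r-ps61 was at 6.60, 4.62 and 6.62 in 2CLCs and listed at 0 elsewhere. Vmn2r94 was at 3.03, 3.01 and 2.82 and Vmn2r8 at 2.52, 2.27 and 1.59, again with 0 in the other states. Type 2 receptors have a long extracellular domain and therefore several exons, and Vmn2r8 shares 177 exon bases with Tmed11, a trafficking gene on the same strand that was at a mean of 7.19 FPKM in 2CLCs and 0 elsewhere. The labels do not say how reads of overlapping genes were divided, so this pair is uncertain.

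Many of these genes neighboured each other. GENCODE M21 placed 81 of the members (all but Olfr329) on 15 chromosomes, and 1972 receptor genes in 94 clusters separated by more than 1000 kb. Members lay in 30 of the clusters, with 2 or more in 18 of them. A neighbouring receptor gene was itself a member for 51 of 81 placed members (63.0%), and for 81 of the 1891 other receptor genes (4.28%). Of the 69 placed members that were highest in 2CLCs, 45 had another member within 100 kb. Similar copies can share reads, so neighbours are not independent measurements.

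The cluster with most members, 8 of 71 receptor genes, lies on chromosome 10, where they form 3 groups. In the first, Olfr764-ps1 and Olfr766-ps1 were at 8.05, 7.64 and 7.44 and at 16.4, 15.4 and 15.2 FPKM in 2CLCs, while Olfr765 and Olfr767 between and beside them were at 0.657, 0.295 and 0.143 and at 0.939, 0.781 and 0.641. GENCODE calls Olfr764-ps1 and Olfr766-ps1 protein-coding despite their names, and their transcripts are 91.6% identical. In the second, Olfr787 was at 12.5, 13.3 and 11.3 and its neighbour Olfr788 at 0.437, 0.655 and 0.540. In the third, Olfr815 was at 5.21, 6.15 and 6.20 and Olfr814 at 0.860, 0.507 and 0.727. Outside 2CLCs only Olfr814 exceeded 0.1 FPKM in this cluster, at 0.267, 0.493 and 0.476 in ESCs, just under its lowest 2CLC library. In each group a high member stood beside a low one, and the rest of the 71 did not reach the floor.

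Copies of such similarity limit how far neighbours can be told apart. The first 50 coding bases of Olfr765 and Olfr767, whose transcripts are 95.6% identical, differ at 1 position, in capitals here.
Olfr765: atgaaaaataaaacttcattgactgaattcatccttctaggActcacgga
Olfr767: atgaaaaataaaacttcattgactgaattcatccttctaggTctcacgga
Over the 81 placed members the identity to the closest other receptor transcript (blastn) had a median of 88.0%, and 14 were at 95% or more. Vmn2r-ps16 and Vmn2r-ps17 were 100% identical over the aligned length, so reads from the aligned part cannot be told apart, and Olfr814 and Olfr815 were 96.5% identical.

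On chromosome 9, the 4 neighbours Olfr881, Olfr882-ps1, Olfr883 and Olfr884 were all highest in 2CLCs, with Olfr883 at 0.360, 0.789 and 0.833 FPKM and Olfr884 at 0.494, 0.760 and 0.398. The predicted gene Gm45701, 4.51 kb from Olfr881, was at 4.14 in 2CLCs and 0 elsewhere. A second cluster on this chromosome held Olfr846, Olfr847 and Olfr848-ps1, of which the pseudogene was highest at 4.84, 5.16 and 3.46, and, at its far end, Olfr39, Olfr873 and Olfr18. Olfr18 was at 2.37, 2.44 and 2.20 and lies 9.04 kb from Zfp560, a zinc finger gene at a mean of 178 FPKM in 2CLCs and 1.15 in ESCs. On chromosome 19, Olfr1425 was at 4.73, 5.53 and 3.82 and its neighbours Olfr1426, Olfr1428 and Olfr76 lower, Olfr1426 at 1.23, 1.19 and 0.774 and Olfr76 at 0.366, 0.418 and 0.877.

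On chromosome 13, 6 of the 13 annotated receptor genes were members, all of them type 2 vomeronasal pseudogenes from Vmn2r-ps100 to Vmn2r-ps106. Unlike most members they were also detected in ESCs. Vmn2r-ps106 was at 4.89, 4.45 and 2.24 FPKM in 2CLCs and 0.213, 0.223 and 0.186 in ESCs, and Vmn2r-ps100 at 3.59, 3.85 and 1.98 and 0.0925, 0.110 and 0.171. Their 2CLC and ESC libraries did not overlap, with differences of 1.96 ± 0.17 (SE) and 1.85 ± 0.14 (SE). Vmn2r-ps106 overlaps Zfp640 without shared exon bases, a transcribed zinc finger pseudogene that was at 20.9 FPKM in 2CLCs and 7.41 in ESCs.

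**Figure D3:**
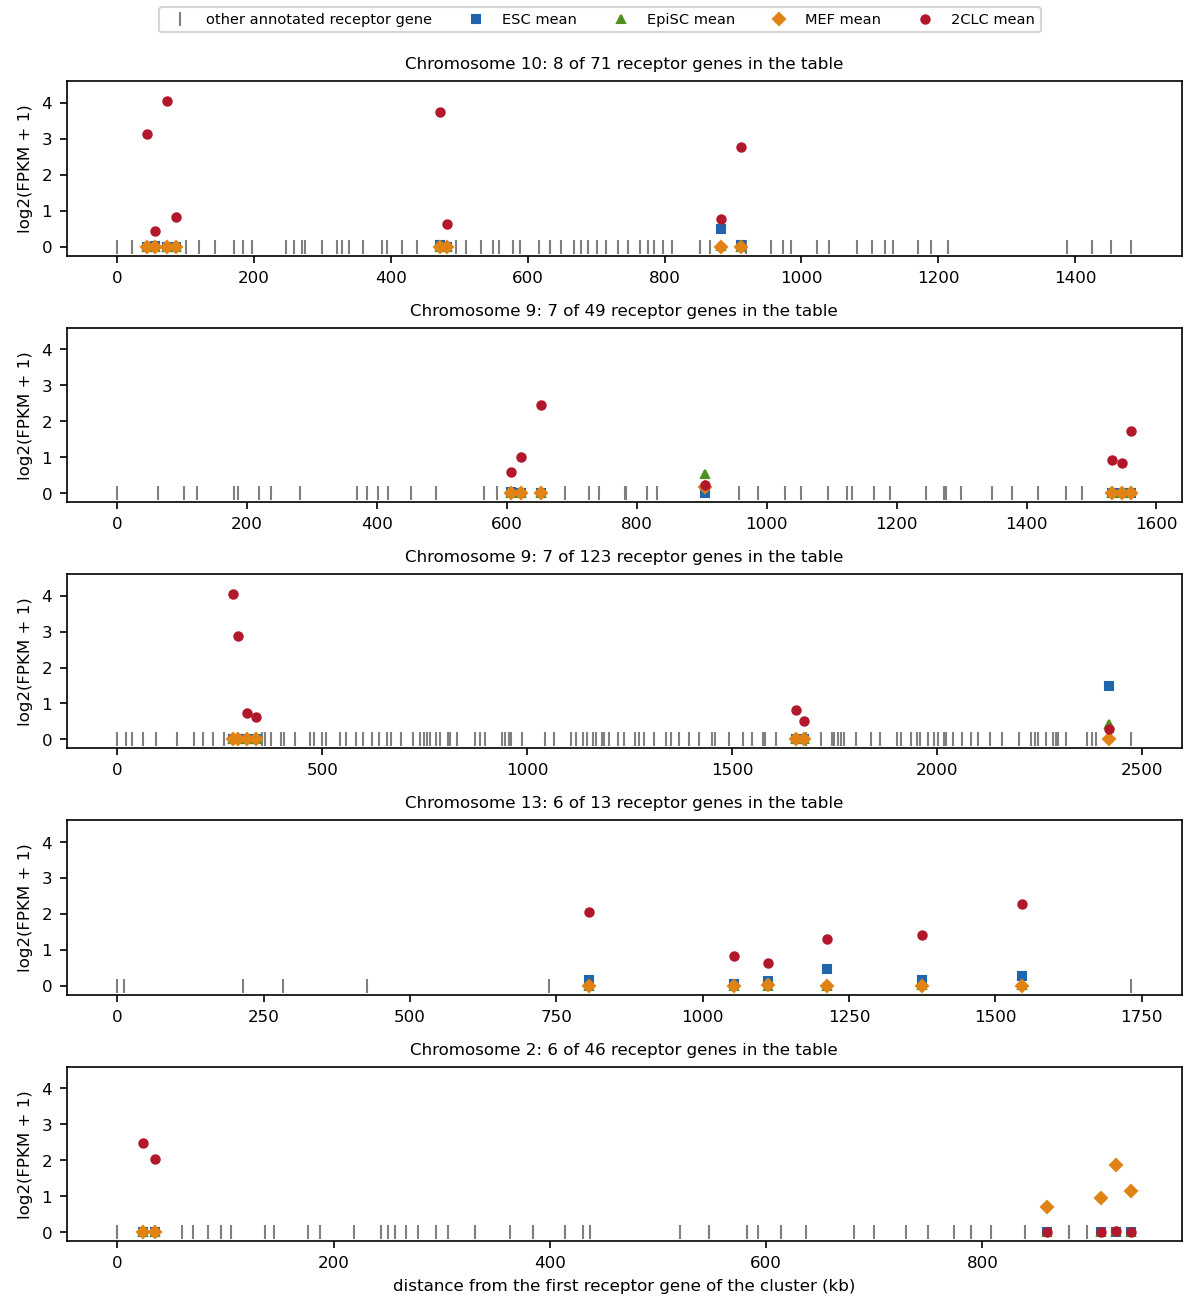
Mean level, as log2(FPKM + 1), of the members in the 5 clusters with 6 or more members against the distance in kb from the first receptor gene of the cluster; grey ticks are other annotated receptor genes. Red 2CLC points rise in small groups of neighbours, and in the chromosome 2 cluster the 4 members of the far end are raised in MEFs (orange) and not in 2CLCs.

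Of the 69 placed members highest in 2CLCs, the nearest other gene of the table was itself highest in 2CLCs for 35 (50.7%, against 21.6% of all names). The distance to that gene had a median of 55.8 kb and ran from 0.331 to 608 kb, and was under 10 kb for 16 members. Members of a cluster can share their nearest gene, as Olfr449 and Olfr450 share Gm23982. The 69 are therefore not independent, and some neighbours are counted more than once. In the pair on chromosome 2, Olfr1276 (4.67, 5.15 and 4.04 FPKM) and Olfr1277 (3.19, 3.45 and 2.70) were seen in 2CLCs alone, and Gm13962, an antisense transcript overlapping Olfr1276, was at 23.9 FPKM in 2CLCs and 0.0378 in ESCs. In all, 17 members overlap another annotated gene and 5 of them share exon bases with it. The annotated exons of Olfr1276 and Gm13962 share 0 bases, and the labels do not say whether strand was used in counting.

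MEFs had receptor genes of their own at the other end of that cluster. Olfr1318 (chr2:112154198-112159157, plus strand) was at 2.67, 2.42 and 2.96 FPKM in MEFs, at 0.0555, 0 and 0 in 2CLCs, at 0.00918, 0.0399 and 0.0108 in EpiSCs and listed at 0 in ESCs. The MEF libraries lay apart from all others, with a difference from ESCs of 1.88 ± 0.06 (SE). Its neighbours Olfr1314, Olfr1317 and Olfr1319-ps1 were at 0.686, 0.517 and 0.620, at 0.920, 0.789 and 1.06 and at 2.11, 0.321 and 1.20 in MEFs and listed at 0 in the other 9 libraries. They fell below the 1 FPKM filter, and with no filter the differences from ESCs were 0.68 ± 0.05 (SE), 0.94 ± 0.06 (SE) and 1.06 ± 0.22 (SE). All 3 are members only through their MEF values. That fit of every name called 12 of the 82 members in MEFs against ESCs (66.1% of all names) and 10 in EpiSCs (53.3%). It called 67 higher and 4 lower in 2CLCs than in ESCs (21.2% and 47% of all names), 70 higher than in EpiSCs (24.2%) and 72 higher than in MEFs (32.4%). With 0.5 FPKM as the filter 5 members were called in EpiSCs (57% of genes), 7 in MEFs (71.8%) and 47 higher in 2CLCs than in EpiSCs (23.8%). Names enter the table by reaching its floor in some library, so these counts carry no weight of their own either. Lpcat4, a phospholipid enzyme and the nearest other gene of the table on that side, had means of 15.9 FPKM in MEFs, 7.17 in ESCs, 17.2 in EpiSCs and 31.2 in 2CLCs.

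Of the 35 tested members, 3 were called between MEFs and ESCs, where 75.3% of all tested genes were called, and 3 between EpiSCs and ESCs, where 59.7% were. Both shares are far below the background, most tested members being at or near 0 in all 3 states. The filter made this so, as 31 of the 35 passed it only through 2CLC libraries. The low shares therefore carry no weight of their own. The pseudogene Olfr1372-ps1 was the member shared by 3 states, at 1.17, 1.25 and 1.05 FPKM in 2CLCs, 1.38, 0.846 and 1.20 in EpiSCs and 1.58, 1.53 and 1.83 in MEFs, and 0.111, 0.117 and 0.102 in ESCs. ESC libraries lay below all others, with differences from ESCs of 0.96 ± 0.09 (SE) in 2CLCs, 0.94 ± 0.09 (SE) in EpiSCs and 1.25 ± 0.09 (SE) in MEFs.

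Vmn2r97, a type 2 vomeronasal receptor, was the EpiSC gene, at 1.91, 1.32 and 1.43 FPKM in EpiSCs and listed at 0 in the 9 libraries of the other states. The difference from ESCs was 1.35 ± 0.07 (SE). In its window the RefSeq start lies 22 bases from the GENCODE start, so here the printed bases before the start codon lie at the annotated promoter.

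ESCs had 3 members with their highest mean there. Olfr985 (chr9:40126308-40130184, minus strand) was at 2.11, 1.78 and 1.52 FPKM in ESCs, 0.0511, 0.188 and 0.406 in 2CLCs, 0.256, 0.369 and 0.404 in EpiSCs and listed at 0 in MEFs. ESC libraries did not overlap those of any other state, and Olfr985 was the single member called lower in 2CLCs, with a difference of -1.21 ± 0.10 (SE). It was also called lower in EpiSCs, with a difference of -1.06 ± 0.10 (SE), and in MEFs, with -1.48 ± 0.10 (SE). Olfr222 was at 0.701, 0.497 and 0.351 and Olfr153 at 0.492, 0.518 and 0.320 in ESCs, both below the filter.

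Set against EpiSCs, 31 of the 35 tested members were called higher in 2CLCs and Vmn2r97 lower, where 23.4% of all tested genes were called higher and 58.7% lower (43.1% and 35.1% after median-of-ratios scaling). Set against MEFs, 32 were called higher and Olfr1318 and Olfr1372-ps1 lower, where 33.4% of genes were called higher and 51% lower (44.9% and 40.4% after that scaling). The comparisons share the 2CLC libraries, and 31 members were called higher in all 3 of them, as were 2321 of the 16358 tested genes (14.2%). Since 31 of the 35 passed the filter only through 2CLC libraries, they had to be high there. These counts, too, carry no weight of their own.

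The machinery that serves these receptors in sensory neurons was partly below detection and showed no shared rise in 2CLCs. The cAMP channel subunits Cnga2, Cnga4 and Cngb1, the vomeronasal channel Trpc2 and the receptor chaperones Rtp1 and Rtp2 never reached the table's floor. Of 9 tested genes of olfactory transduction, 1 was called higher in 2CLCs than in ESCs (Rgs2, a regulator of G protein signalling, at 0.561, 0.151 and 0.812 against 0.0657, 0.126 and 0 FPKM) and 7 lower, among them Ric8b, which assists the olfactory G protein Gnal, at 1.58 ± 0.382 against 12.2 ± 0.628 FPKM (SD, n = 3). Of 5 vomeronasal transduction genes 1 was higher and 2 lower, and the G protein Gnai2 was not called, at 79.6 ± 4.41 and 72.4 ± 1.72 FPKM. The median differences were -0.60 and 0.13, beside -0.46 for all tested genes. After median-of-ratios scaling 3 of the 9 olfactory genes were higher and 5 lower, and 3 of the 5 vomeronasal genes higher and 1 lower.

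Of 16 tested genes for receptor trafficking and choice, 4 were called higher in 2CLCs and 4 lower, with a median of -0.10. Atf5, a factor of the receptor-triggered stress response of olfactory neurons, was at 24.4 ± 2.04 FPKM in 2CLCs against 13.5 ± 0.679 in ESCs, while Ldb1, which bridges receptor enhancers in those neurons, was at 13.1 ± 0.392 against 65.2 ± 2.70. The enhancer factor Lhx2 was called higher at low levels of 0.672 ± 0.230 and 0.258 ± 0.0516. Of 18 genes for the heterochromatin that covers receptor clusters, 14 were called lower in 2CLCs and 1 higher, with a median of -1.17. The heterochromatin protein genes Cbx1, Cbx3 and Cbx5 were among the 14, Cbx5 at 18.05 ± 0.250 against 71.1 ± 0.652 FPKM, whereas Trim28 and Setdb1, which silence repeats and receptor clusters, were not called. After median-of-ratios scaling 10 of the 18 were called lower and 4 higher, with a median of -0.43. The main counts for 2CLCs stand beside 56.4% of all tested genes called lower. A fall from ESCs was not particular to 2CLCs. In MEFs 15 of the 18 were called lower and 1 higher (median -1.62), where 40.9% of all tested genes were lower. In EpiSCs 10 were lower and 6 higher (-0.25), where 26.5% were lower. The part of these genes in the receptor levels was not tested.

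With sodium lactate the summed level of the members was higher at each dose, and most members stayed near 0. At 0 mM 7, 6 and 6 members reached 0.5 FPKM, at 60 mM 8, 9 and 9, and at 80 mM 10, 7 and 12. Over the same groups all names at this level numbered 14118 to 14212, 14651 to 14723 and 14871 to 14990. The summed level was 13.0, 12.5 and 11.99 FPKM at 0 mM, 13.9, 14.5 and 15.9 at 60 mM and 18.7, 18.3 and 18.7 at 80 mM, so the 3 doses did not overlap. Counted above 0, members numbered 38, 37 and 42 at 0 mM, 52, 48 and 50 at 60 mM and 57, 53 and 54 at 80 mM. All names above 0 rose too, numbering 23338 to 23388 at 0 mM, 24232 to 24589 at 60 mM and 24735 to 25474 at 80 mM. The 12 genes of the 2-cell programme summed to 52.3 to 58.8 FPKM at 0 mM, 120 to 133 at 60 mM and 195 to 205 at 80 mM. All 10 of them that were tested were called higher at either dose, and their part in the receptor levels was not tested.

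Only 5 members passed the 1 FPKM filter in the lactate table. Vmn1r48, a type 1 vomeronasal receptor, was at 0.718, 0.636 and 0.485 FPKM at 0 mM, 1.003, 1.08 and 0.875 at 60 mM and 1.04, 1.27 and 0.929 at 80 mM. All libraries with lactate lay above all without. It was the 1 member called at 60 mM, where 42.1% of all tested genes were called, and at 80 mM, where 53.1% were. The differences were 0.30 ± 0.11 (SE) and 0.37 ± 0.11 (SE). Vmn1r48 reached 1 FPKM only in libraries with lactate, so it had to be high there to be tested. These calls therefore carry no weight of their own. In the fit with no filter on low values it was called at 80 mM (adjusted p = 0.0346, limma) and not at 60 mM. Under the filter, the 60 mM call was lost whichever library was left out (limma, adjusted p of 0.0529 to 0.139). The 80 mM call was lost without replicate 2 of 80 mM (0.0624) or replicate 3 of 0 mM (0.0568). Its transcript is 97.8% identical to that of Vmn1r47, and in the cell-state table it was listed at 0 in ESCs and at 1.52, 1.19 and 1.47 in 2CLCs.

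The other tested members were not called. Olfr985, the ESC gene, was at 1.40, 1.92 and 1.91 FPKM at 0 mM and 1.10, 1.92 and 1.17 at 80 mM, a difference of -0.20 ± 0.15 (SE). Olfr153 was at 1.61, 1.03 and 1.48 and 0.899, 0.959 and 1.08, a difference of -0.26 ± 0.15 (SE). The pseudogene Vmn2r-ps20 was at 1.85, 2.92 and 1.22 and 2.21, 2.08 and 1.01, and Vmn1r-ps151 at 1.43, 1.46 and 1.08 and 1.58, 1.69 and 1.71. For Vmn1r-ps151 the 80 mM libraries lay just above those at 0 mM, with a difference of 0.20 ± 0.17 (SE). Groups overlapped for Olfr985 and Vmn2r-ps20, and for Olfr153 the 80 mM range reached the lowest 0 mM library, at 1.08 against 1.03. Between 80 and 60 mM 0 members were called, where 6.17% of genes were, and 0 of the 5 had an unadjusted p below 0.05 (limma).

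With no filter on low values, 11 of the 82 members were called at 80 mM, 10 higher and 1 lower, where 6.70% of the 55291 names were called higher and 4.34% lower. All 10 were members with their highest cell-state mean in 2CLCs: Olfr376, Olfr1276, Olfr329, Olfr699, Olfr766-ps1, Olfr815, Vmn1r15, Vmn1r227, Vmn1r48 and Vmn2r-ps61. This holds for 70 of all 82 members (85.4%), so it does not set the 10 apart. The EpiSC gene Vmn2r97 was the 1 called lower, at 0.0263, 0.0221 and 0.0161 FPKM at 0 mM and 0 at 80 mM. These members were admitted by their level in the other table, so the call is not made by the lactate values. However, 22370 of the 55291 names were at 0 throughout, against 17 of the 82 members. Names at 0 cannot be called and lower the background more, so the shares are not matched. At 60 mM the same fit called Olfr376 higher and Vmn2r97 lower (7.15% of all names), and between 80 and 60 mM 0 members (0.436%), with 11 at an unadjusted p below 0.05. With 0.5 FPKM as the filter, Olfr376 and Vmn1r48 were called at 60 mM (38.2% of genes) and at 80 mM (49.3%). Olfr376 reached that filter only in libraries with lactate, so its calls in this fit carry no weight of their own.

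Olfr376 gave the clearest lactate series, at 0.139, 0.0432 and 0.132 FPKM at 0 mM, 0.416, 0.548 and 0.465 at 60 mM and 1.04, 0.814 and 0.884 at 80 mM. The 3 doses did not overlap. The differences from 0 mM in the fit with no filter were 0.42 ± 0.07 (SE) and 0.79 ± 0.07 (SE), adjusted p = 0.0123 and 4.88e-04 (limma). At 80 mM its level was still far below that in 2CLCs, which stand in a table normalized separately. Olfr699 was at 0.0488, 0 and 0.0502 at 0 mM and 0.353, 0.362 and 0.236 at 80 mM, and Olfr766-ps1 at 0.0329, 0.0320 and 0.0325 and 0.132, 0.280 and 0.273. Levels this low may rest on few reads, and their number is unknown.

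**Figure D4:**
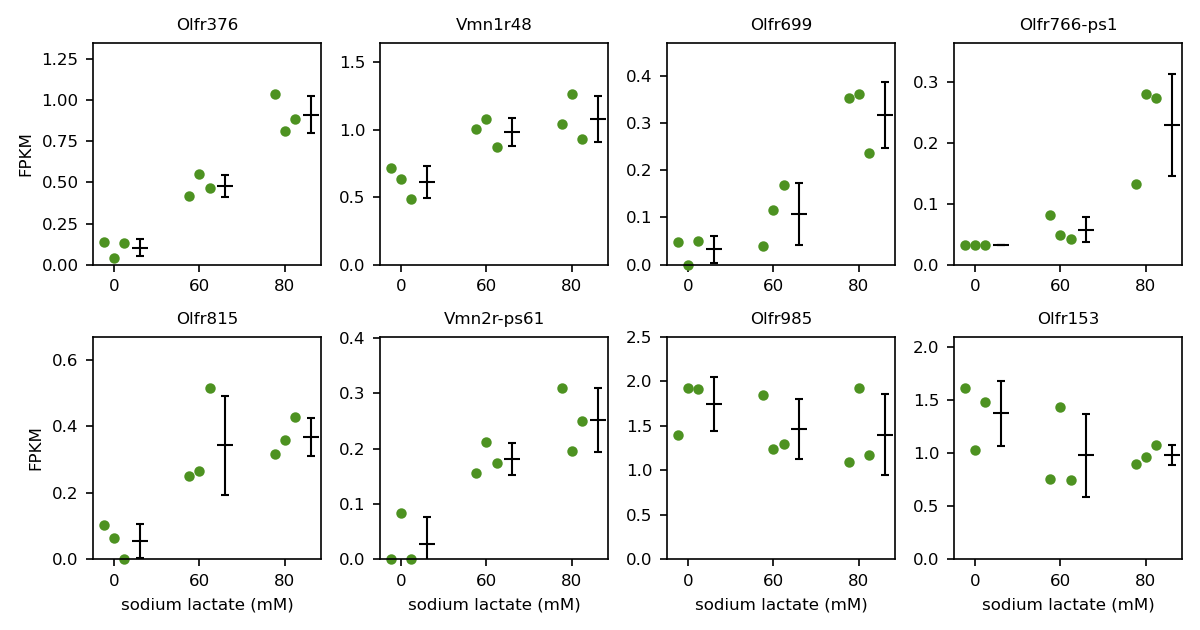
FPKM of 8 members at 0, 60 and 80 mM sodium lactate; points are libraries and the marks to their right the mean ± SD (n = 3), doses are evenly spaced on the axis, and each gene has its own scale from 0. Olfr376 rises at each dose, Vmn1r48 and Olfr815 lie higher at 60 and 80 mM, Olfr699, Olfr766-ps1 and Vmn2r-ps61 have their highest mean at 80 mM, and Olfr985 and Olfr153 overlap between doses.

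In 26 members every 80 mM library lay above every 0 mM library and in 3 below, of 65 that were above 0 in any lactate library; the shares over all 32921 such names were 20.9% and 13.0%. At 60 mM the counts were 17 and 2, against 16.9% and 11.9%. The direction was therefore mostly upward, at levels that for all but a few genes stayed below 0.5 FPKM. Vmn1r88, the highest member in 2CLCs, was at 0.0566, 0 and 0.0703 at 0 mM, 0.314, 0.227 and 0.193 at 60 mM and 0, 0 and 0.525 at 80 mM, where 1 library of 3 carried the whole value. The MEF genes Olfr1314, Olfr1317, Olfr1318 and Olfr1319-ps1 were listed at 0 in all 9 lactate libraries, as were 17 members in all.

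Olfactory transduction genes were called higher at 80 mM for 6 of 9 tested and lower for 1, with a median of 0.37 beside 0.03 for all genes, of which 29.97% were called higher and 23.1% lower. Gnal, the olfactory G protein, was at 1.76 ± 0.557 FPKM at 0 mM, 4.02 ± 0.149 at 60 mM and 4.48 ± 0.180 at 80 mM, and Adcy3, its adenylyl cyclase, at 1.84 ± 0.142, 3.62 ± 0.294 and 3.86 ± 0.219 (SD, n = 3). In both genes all libraries with lactate lay above all without. The rise was not particular to this list. At 80 mM all 10 tested genes of the 2-cell programme were called higher (median 1.67). Of 4 tested primed markers 3 were higher and 0 lower (0.95), and of 3 fibroblast markers 2 higher and 1 lower (0.57). Of the 10 ESC markers 6 were higher and 4 lower (0.22). The other lists of sensory genes and that of heterochromatin showed no such rise. Of 2 vomeronasal transduction genes 1 was called higher and 1 lower, with a median of -0.57. Of 10 genes for trafficking and choice 4 were higher and 4 lower (-0.09), and of 5 olfactory neuron markers 2 higher and 3 lower (-0.87). Of the 18 heterochromatin genes 8 were called lower and 3 higher at 80 mM, with a median of -0.13, and 11 lower and 3 higher after median-of-ratios scaling.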

How the data were processed

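The authors deposited FPKM values in separate tables for cell states and lactate. HISAT2 2.0.4, StringTie 2.1.4 and mm10 are named in the submitters' processing notes, without the annotation. RNA was isolated with Trizol and sequenced from TruSeq libraries, per the labels' protocols. Read numbers behind the values are unknown. Each member stands once in either table. Values were taken as log2(FPKM + 1), so differences understate the change of genes near 0, and genes at 1 FPKM or more in 3 libraries were tested with limma 3.58.1 (R 4.3.3, mean trend, 1 fit per table), with Benjamini-Hochberg adjustment at 0.05; the pipeline was checked on simulated data. Differences are the first group minus the second. Python 3.11.15 and BLAST 2.17.0 did the rest. Members and lists were chosen with earlier results of these data known. The text names called members (up to 12 a direction), the 12 highest means and any member with a lone nonzero library in a group; those named for their place in a cluster were chosen after their values were seen.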

Additional observations from a re-analysis of the deposited data

How the results depend on the processing

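Against ESCs and across lactate doses, every called member kept its direction under each alternative, and every call held except those of Vmn1r48 with lactate. Vmn1r48 lost its 80 mM call with quantile normalization (difference 0.10) and its 60 mM call also with median-of-ratios scaling, no filter and a fit of the compared groups alone. Counts moved mostly with the filter, because it decides how many members are tested. With no filter 67 members were higher and 4 lower in 2CLCs than in ESCs, 10 were called in EpiSCs and 12 in MEFs, 70 were higher than in EpiSCs and 72 than in MEFs, and 2 were called at 60 mM and 11 at 80 mM. A filter of 0.5 FPKM, added after seeing the data, gave 5 calls in EpiSCs, 7 in MEFs, 47 higher than in EpiSCs and 2 at either dose. A pseudocount of 0.1 gave 8 calls in EpiSCs and 9 in MEFs, and a fit of the compared groups alone 5 and 7. The share of all genes called is not given for these fits, nor for those with a block or a library left out. Such counts show only how the member calls moved, not whether all genes moved likewise. At 60 mM, the compared groups alone and both scalings gave 0. Leaving out a library, with 2 libraries at 1 FPKM required, gave 32 to 36 members higher in 2CLCs than in ESCs, 31 to 35 than in EpiSCs or in MEFs, 3 to 4 calls in EpiSCs, 4 to 6 in MEFs (5 without replicate 2 of MEFs, 6 without replicate 1 of ESCs) and 0 to 1 at either dose. The call at 60 mM without replicate 2 of 60 mM was Olfr153, lower (-0.43), as was the call at 80 mM with quantile normalization (-0.46). With the replicate block every count was as without it (32 higher and 1 lower in 2CLCs than in ESCs). Replicate numbers did not pair the libraries: correlations of same-numbered deviations ran from -0.066 to 0.103 in the cell states and from -0.0143 to 0.0717 in lactate. Reads shared by near-identical copies and unknown depth limit all levels near 0.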

Other observations

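The lactate table also lists the 1915 receptor names that are not members. Of these 102, 83 and 98 were above 0 at 0 mM, 135, 133 and 129 at 60 mM and 152, 145 and 135 at 80 mM, without overlap between the untreated and treated libraries. Over names that are no receptor genes the share above 0 also rose, from 43.6% at most at 0 mM to 46.1 to 47.4% at 80 mM. Only 10 of the 1915 reached 0.5 FPKM in a library. Vmn1r47, the close copy of Vmn1r48, was at 0.905, 0.566 and 0.478 FPKM at 0 mM, 1.92, 1.23 and 1.51 at 60 mM and 1.39, 1.43 and 1.31 at 80 mM, so its libraries with lactate lay above those without. Olfr1459 was at 0.186, 0.184 and 0.124 at 0 mM and 0.520, 0.676 and 0.641 at 80 mM. Olfr986 went the other way, from 0.878, 0.725 and 0.426 at 0 mM to 0.165, 0.347 and 0.345 at 80 mM, and its groups did not overlap.

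Other chemosensory families were nearly absent from the cell-state table, which held 2 of 61 trace amine, formyl peptide and taste receptor genes looked for. Taar7f, a trace amine receptor, was at 0.344, 0.630 and 0.314 FPKM in 2CLCs and listed at 0 elsewhere. Fpr1, a formyl peptide receptor of immune cells, was at 0.948, 0.773 and 1.22 FPKM in MEFs and listed at 0 elsewhere.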
